A study of Mus musculus with 27 samples.

Results

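The FOXO factors Foxo1, Foxo3 and Foxo4 and 7 genes known as FOXO or quiescence targets (Klhl24, Crebrf, Ccng2, Txnip, Sesn1, Sesn3 and Irs2) were followed through mouse T cell models of TAL1 and activated AKT. They were chosen by symbol, with earlier results of these data known. All 10 were found in each of the 3 deposited count tables. These held 22906 genes in the table of AKT(E17K) mice and 46078 in each of the others.

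FOXO proteins are forkhead transcription factors that sit at the end of the PI3K/AKT pathway. When growth factor signalling is active, AKT phosphorylates them, 14-3-3 proteins bind them and they are held in the cytoplasm. When it is low, they enter the nucleus and switch on genes of cell cycle arrest, stress resistance and nutrient sparing, and in T cells they support receptors of homing and survival such as the interleukin-7 receptor. Because this control acts on the protein, the mRNA of a FOXO factor and the mRNA of its targets can move separately.

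Total RNA was sequenced from thymus of C57BL/6 mice after bone marrow transplantation and from the ProT cell line. The thymus groups had 3 mice each: AKT(E17K) with TAL1, both constitutively expressed (mice m116, m117 and m119); AKT(E17K), the activated form of the kinase AKT1 (m121, m122 and m124); TAL1 overexpression (M317, M318 and M319); and empty vector (M311, M312 and M315). ProT cells were labelled as carrying TAL1 under induction by CreER and LoxP, and were given 4OH tamoxifen for 0, 6, 12, 18 or 24 h, with 3 libraries a time. The ages of the mice and the cell type or promoter behind each construct are not given in the sources used here, and whether the ProT libraries came from separate cultures is not stated, so their p-values measure the spread between these libraries. Counts in genes ran from 2230143 to 2792084 in AKT(E17K) with TAL1 mice, 2073752 to 3661056 in AKT(E17K) mice, 7155918 to 11302098 in TAL1 mice, 3893990 to 5915285 in empty-vector mice and 2660641 to 6599146 in ProT libraries. The mice with and without AKT(E17K) were in separate tables, so AKT(E17K) and table cannot be told apart, and levels are set side by side across them with no test. Levels below are CPM, counts scaled to a common library size, on 1 scale over the genes that the 3 tables share, and CPM per kilobase of merged exon where genes are compared with each other.

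The labels were checked on the same scale. Mouse Tal1 had no count in any mouse labelled TAL1, with or without AKT(E17K), and was already at 4830 ± 162 CPM in ProT cells at 0 h, against 3200 ± 75.4 CPM at 24 h (SD, n = 3 each), so the direction of every TAL1 comparison rests on the labels. After tamoxifen Tal1 fell by 0.53 at 12 h, fell by 0.42 at 18 h and fell by 0.57 at 24 h on the log2 scale (edgeR adjusted p = 0.00509, 0.0299 and 0.00172), and had 0.10 at 6 h (0.941). A rise of Tal1 reads under the label of induced TAL1 was not seen. Whether these reads come from the construct was not tested. Akt1 averaged 87.7 ± 34.1 CPM with AKT(E17K) and 158 ± 19.3 CPM with empty vector, and an expressed construct outside the counted mouse genes would not be seen here. Thymocyte markers summed to 7560 to 11300 CPM in AKT(E17K) with TAL1 mice, 6430 to 9420 in AKT(E17K) mice, 16000 to 18400 in TAL1 mice and 13100 to 15300 in empty-vector mice. ProT cells summed to 1210 to 1460 CPM, with Cd4, Cd8a and Cd8b1 at 0 in all 3 libraries at 0 h and at 24 h.

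Txnip, Ccng2 and Klhl24, more than the factors, set the AKT(E17K) thymus apart from the thymus without it. Txnip, Ccng2, Klhl24 and Crebrf stood at least 4-fold lower in AKT(E17K) than in empty-vector mice, 4 of the 10 genes, where 6.91% of 9260 genes with at least 10 CPM in either group did. Between AKT(E17K) with TAL1 mice and TAL1 mice the count was again 4 of 10 (Txnip, Ccng2, Klhl24 and Irs2), where 4.56% of 8926 genes did. The median log2 ratio of the 10 genes was -1.84 for AKT(E17K) over empty vector, against 0.01 for all genes, and -1.62 for AKT(E17K) with TAL1 over TAL1, against -0.07. The 4-fold limit was set after the values were seen. The 10 genes were chosen with earlier results of these data known, so these shares and medians are description only. Just outside it stood Irs2, 3.97-fold lower, and Foxo1, 3.65-fold lower, in AKT(E17K) than in empty-vector mice, and Crebrf, 3.19-fold lower, in AKT(E17K) with TAL1 than in TAL1 mice. Without AKT(E17K) mouse m124, Foxo1 and Irs2 also passed and the count was 6, and without m122 Crebrf fell outside and it was 3.

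**Figure D1:**
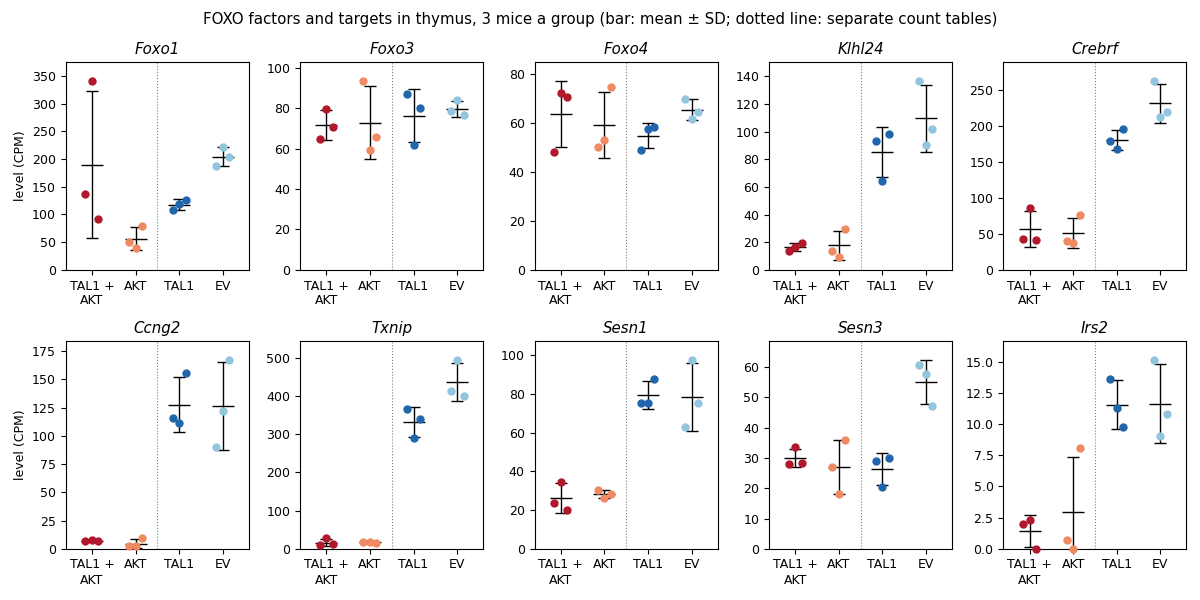
Level of each gene in CPM (y axis, linear, from 0) in each thymus group (x axis, TAL1 + AKT being AKT(E17K) with TAL1 and EV empty vector); points are mice, the horizontal dash is the mean and the whisker the SD (n = 3). Txnip and Ccng2 lie near the bottom in both AKT(E17K) groups, Foxo3 overlaps in all 4 groups, and Foxo1 spreads from 91.99 to 341 CPM in AKT(E17K) with TAL1 mice.

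Txnip binds thioredoxin and limits glucose uptake. It was at 17.1, 17.5 and 14.7 CPM in AKT(E17K) mice m121, m122 and m124, against 413, 494 and 401 CPM in empty-vector mice M311, M312 and M315, 26.5-fold lower on the means. With TAL1 it was at 9.36, 28.1 and 11.8 CPM in AKT(E17K) mice m116, m117 and m119, against 366, 289 and 340.2 CPM in TAL1 mice M317, M318 and M319, 20.2-fold lower. All 6 mice with AKT(E17K) were at 28.1 CPM or less and all 6 without it at 289 CPM or more. Per kilobase Txnip was first of the 10 genes in empty-vector mice at 140 CPM per kb, and sixth in AKT(E17K) mice at 5.26 CPM per kb. Txnip shares 606 exon bases with the antisense gene Gm15441, which itself had 1.14 ± 0.588 CPM with AKT(E17K) and 7.26 ± 1.84 CPM with empty vector. The strand setting of the counting is not given, so reads in the shared bases cannot be assigned with certainty.

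Ccng2 encodes cyclin G2, an unusual cyclin that accompanies cell cycle arrest. Its level was 2.19, 2.33 and 9.22 CPM in AKT(E17K) mice, against 89.8, 122.2 and 167 CPM in empty-vector mice, 27.6-fold lower. It was 6.63, 7.80 and 7.20 CPM in AKT(E17K) with TAL1 mice, against 115.6, 112 and 156 CPM in TAL1 mice, 17.7-fold lower. The 2 pairs of groups did not overlap, and AKT(E17K) mouse m124 was the highest AKT(E17K) mouse for Ccng2, Klhl24 and Irs2.

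Klhl24, an adaptor of cullin-3 ubiquitin ligases, was at 13.9, 9.33 and 29.7 CPM in AKT(E17K) mice, against 136.5, 90.5 and 102 CPM in empty-vector mice. Crebrf, a regulator of the transcription factor CREB3, was at 39.7, 37.9 and 76.0 CPM in AKT(E17K) mice, against 263, 213 and 220.1 CPM in empty-vector mice. These were 6.22-fold and 4.53-fold lower on the means, and in both genes the highest AKT(E17K) mouse, m124, stayed below every mouse without AKT(E17K).

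The sestrins, which hold back mTORC1 when amino acids are scarce, differed less. Sesn1 averaged 28.4 ± 2.19 CPM with AKT(E17K) and 78.5 ± 17.5 CPM with empty vector (SD, n = 3 each). With TAL1 it averaged 26.2 ± 7.61 CPM on the AKT(E17K) background and 79.6 ± 7.17 CPM without it. Sesn3 was 2.04-fold lower in AKT(E17K) than in empty-vector mice but overlapped between AKT(E17K) with TAL1 and TAL1 mice. Irs2, the adaptor that couples insulin receptors to PI3K, was the lowest of the 10 genes per kilobase in 3 of the 4 thymus groups. No Irs2 read was counted in AKT(E17K) mouse m122 or in AKT(E17K) with TAL1 mouse m119, so its ratios rest on few reads. Irs2 shares 162 exon bases with 9530052E02Rik on the other strand, where reads cannot be assigned with certainty. Scaling by each table's own totals took it out of the second count of 4, because its mean then lay under 10 CPM in both groups. On that scale it was at 1.79, 2.25 and 0 CPM in AKT(E17K) with TAL1 mice, and 11.6, 9.66 and 8.23 CPM in TAL1 mice.

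The factors themselves varied little, apart from Foxo1. Foxo3 averaged 71.6 ± 7.45 CPM in AKT(E17K) with TAL1 mice, 72.8 ± 18.0 in AKT(E17K) mice, 76.3 ± 12.9 in TAL1 mice and 79.6 ± 3.78 in empty-vector mice. Foxo4 averaged 63.5 ± 13.5 CPM in AKT(E17K) with TAL1 mice, 59.2 ± 13.4 in AKT(E17K) mice, 54.8 ± 5.18 in TAL1 mice and 65.3 ± 4.29 in empty-vector mice. For both genes each group's range overlapped the next in order of level. Foxo4 in TAL1 mice (48.8 to 58.1 CPM) nevertheless lay below Foxo4 in empty-vector mice (61.4 to 69.9 CPM). Foxo1 was at 50.3, 39.0 and 78.6 CPM in AKT(E17K) mice, against 188, 221 and 204 CPM in empty-vector mice. With TAL1 the means went the other way, and the ranges overlapped. Foxo1 then averaged 189.6 ± 133 CPM on the AKT(E17K) background and 117.6 ± 9.55 CPM without it. Per kilobase Foxo4 led the 10 genes in AKT(E17K) mice, with Foxo3 next at 9.62 CPM per kb, and Txnip, Crebrf and Foxo1 led in empty-vector mice.

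**Figure D2:**
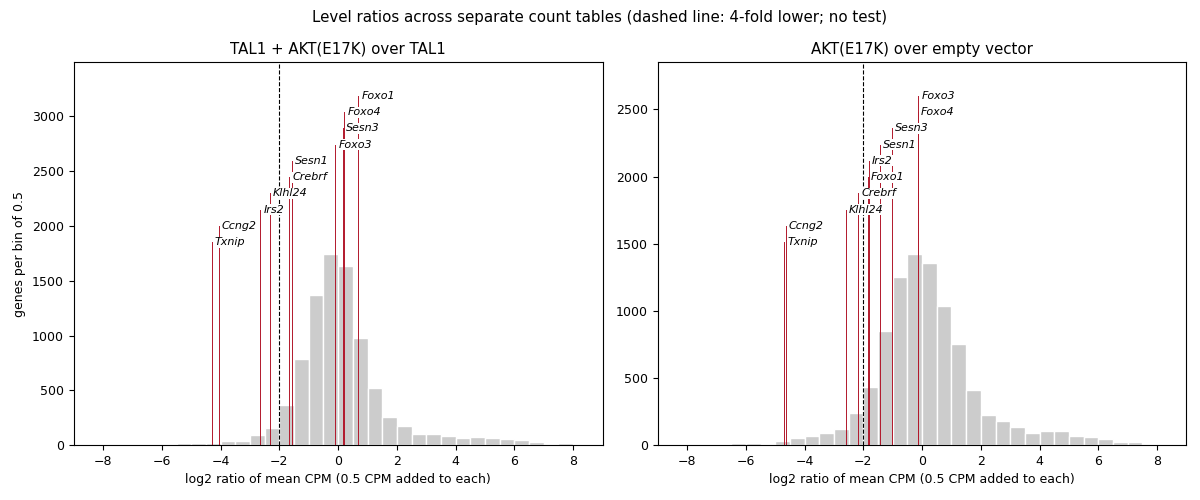
Number of genes (y axis) by log2 ratio of mean CPM (x axis, bins of 0.5, with 0.5 CPM added to each mean) for AKT(E17K) with TAL1 over TAL1 (left) and AKT(E17K) over empty vector (right); red lines mark the 10 genes and the dashed line 4-fold lower. Txnip lies at -4.30 and -4.69 and Ccng2 at -4.06 and -4.64, in the left tails, while Foxo3 lies at -0.09 and -0.13.

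Other FOXO targets stood lower too. A list of 24 further targets was also chosen with earlier results of these data known. Of these, 20 had at least 10 CPM in AKT(E17K) or empty-vector mice. Of the 20, 9 were at least 4-fold lower with AKT(E17K), with a median log2 ratio of -1.70. Between AKT(E17K) with TAL1 and TAL1 mice it was 5 of 18, with a median of -1.40. Cdkn1b, the CDK inhibitor p27, averaged 43.5 ± 19.0 CPM with AKT(E17K) and 444 ± 46.2 CPM with empty vector. With TAL1 it averaged 84.2 ± 20.8 CPM on the AKT(E17K) background and 458 ± 31.4 CPM without it. Klf2, a factor of T cell egress, averaged 5.93 ± 0.593 CPM with AKT(E17K) and 164 ± 30.6 CPM with empty vector. With TAL1 it averaged 17.2 ± 6.47 CPM on the AKT(E17K) background and 41.2 ± 12.3 CPM without it, short of 4-fold. These 2 were picked after their values were seen. Of 13 autophagy genes that FOXO can drive, 12 were at that level in each pair of groups, and 0 stood 4-fold lower in AKT(E17K) than in empty-vector mice. In AKT(E17K) with TAL1 mice against TAL1 mice 1 did, Gabarapl1, at 0.65 ± 1.13 CPM against 13.6 ± 2.08 CPM.

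Cell composition moved with these levels. The 12 mature T cell markers present in all tables, 5 of which are also on the list of FOXO targets, summed to 179 to 284 CPM in AKT(E17K) with TAL1 mice, 82.2 to 253 in AKT(E17K) mice, 780 to 1240 in TAL1 mice and 2250 to 2410 in empty-vector mice. All 12 stood at least 4-fold lower in AKT(E17K) than in empty-vector mice. Between AKT(E17K) with TAL1 and TAL1 mice, 5 of the 11 with at least 10 CPM in either group did. Erythroid markers summed to 136 to 1010 CPM with AKT(E17K) and 0 to 14.9 CPM with empty vector, with Klf1 at 0 in both groups. Myeloid markers summed to 72.9 to 872 CPM with AKT(E17K) and at most 24.7 CPM with empty vector, and stromal markers to 0 to 392 CPM with AKT(E17K) and 0.291 to 1.34 CPM with empty vector. AKT(E17K) mouse m121 was the highest in all 3 lists. With TAL1, erythroid markers summed to 87.9 to 464 CPM on the AKT(E17K) background and 6.58 to 17.5 CPM without it, and myeloid markers to 75.5 to 359 CPM on that background and 8.38 to 416 CPM without it. Without m121 the same 4 genes passed the 4-fold limit. In bulk tissue fewer cells of a type and less RNA per cell cannot be told apart, and the part of composition in these levels was not tested.

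Promoter sequence is shown for the 3 genes that stood over 4-fold lower in AKT(E17K) mice and have an entry, and for Foxo1 and Sesn3, which fell with the TAL1 label. Windows of 300 bases around the annotated start (250 before, 50 after) came from RefSeq on GRCm38.p6 and cover 8 of the 10 genes. Capitals mark, on either strand, the FOXO site GTAAACA, the forkhead core TAAACA that lies inside it, the insulin response core CAAAACA, the E-box CACGTG and the TAL1 E-box CAGATG. Each sequence reads 5′ to 3′ on the gene's own strand. Txnip is at chr3:96557707-96558006 (+), Ccng2 at chr5:93267323-93267622 (+), Crebrf at chr17:26715400-26715699 (+), Foxo1 at chr3:52268087-52268386 (+) and Sesn3 at chr9:14276051-14276350 (+).
Txnip: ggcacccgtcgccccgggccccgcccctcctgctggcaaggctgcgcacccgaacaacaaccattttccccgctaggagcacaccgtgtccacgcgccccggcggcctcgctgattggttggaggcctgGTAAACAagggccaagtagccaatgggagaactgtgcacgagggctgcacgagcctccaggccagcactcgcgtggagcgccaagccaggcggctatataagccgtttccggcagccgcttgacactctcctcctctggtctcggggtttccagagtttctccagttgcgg
Ccng2: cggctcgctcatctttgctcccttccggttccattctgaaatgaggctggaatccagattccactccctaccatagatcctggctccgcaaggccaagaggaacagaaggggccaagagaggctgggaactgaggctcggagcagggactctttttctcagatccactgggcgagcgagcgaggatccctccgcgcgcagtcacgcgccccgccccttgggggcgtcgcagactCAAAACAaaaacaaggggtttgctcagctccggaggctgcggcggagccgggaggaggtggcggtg
Crebrf: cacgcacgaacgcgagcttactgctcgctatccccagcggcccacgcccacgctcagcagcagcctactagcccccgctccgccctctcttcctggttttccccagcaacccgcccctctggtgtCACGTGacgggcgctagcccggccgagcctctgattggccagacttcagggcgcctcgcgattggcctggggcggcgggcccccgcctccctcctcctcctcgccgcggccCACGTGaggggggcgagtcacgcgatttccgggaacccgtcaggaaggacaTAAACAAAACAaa
Foxo1: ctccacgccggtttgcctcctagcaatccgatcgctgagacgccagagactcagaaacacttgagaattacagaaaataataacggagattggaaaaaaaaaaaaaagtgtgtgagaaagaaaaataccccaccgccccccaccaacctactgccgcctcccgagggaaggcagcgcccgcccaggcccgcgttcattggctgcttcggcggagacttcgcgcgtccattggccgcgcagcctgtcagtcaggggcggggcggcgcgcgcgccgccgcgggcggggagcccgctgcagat
Sesn3: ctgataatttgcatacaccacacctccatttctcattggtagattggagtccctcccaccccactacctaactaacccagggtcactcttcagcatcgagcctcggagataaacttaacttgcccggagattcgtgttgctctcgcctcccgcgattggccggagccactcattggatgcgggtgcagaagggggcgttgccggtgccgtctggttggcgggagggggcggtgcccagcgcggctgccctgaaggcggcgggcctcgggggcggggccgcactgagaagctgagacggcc
The FOXO site was found in the windows of Txnip, upstream of the start, and Sesn1, and in 3.65% of all 32851 windows in the table. The forkhead core was found in those and in Crebrf, and in 13.4% of all windows. Crebrf, Ccng2 and Irs2 held the insulin response core (6.28% of all windows), and in Crebrf it overlaps the forkhead core. CACGTG stood at 2 places in Crebrf and at 1 in Irs2 (7.15% of all windows), and CAGATG in none of the windows of these genes (17.2% of all windows). The windows of Foxo1, Foxo3 and Sesn3 held none of these letters. The motifs were chosen after the expression values were known, and a match describes the letters only.

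In thymus without AKT(E17K), the TAL1 label went with less Foxo1 and Sesn3. Of the 10 genes, 2 passed the threshold in edgeR's quasi-likelihood test with Benjamini-Hochberg adjustment (adjusted p under 0.05), both lower in TAL1 mice, where 5.04% of 12357 genes passed in either direction and 2.88% were lower. The log2 fold change was negative in 9 of the 10 genes, with a median of -0.33 against 0.00 for all genes tested.

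Foxo1 (chromosome 3, 52268336 to 52353221, GRCm38, plus strand) was at 108, 118.5 and 127 CPM in TAL1 mice M317, M318 and M319, against 188, 221 and 204 CPM in empty-vector mice. The groups did not overlap, and Foxo1 fell by 0.82 ± 0.11 on the log2 scale (SE, edgeR adjusted p = 0.00156), a 1.76-fold lower level. Leaving out any 1 of the 6 mice kept the adjusted p at or below 0.012. Foxo1 shares 674 exon bases with the antisense gene Gm20402, so reads there could not be assigned with certainty.

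Sesn3 (chromosome 9, 14275067 to 14333101, plus strand) was at 29.1, 20.3 and 29.8 CPM in TAL1 mice, against 60.7, 57.6 and 47.0 CPM in empty-vector mice. Every TAL1 mouse was below every empty-vector mouse, and Sesn3 fell by 1.08 ± 0.20 on the log2 scale (edgeR adjusted p = 0.00687), a 2.11-fold lower level. The other sestrin in the set, Sesn1, had a log2 fold change of 0.00 ± 0.16 (edgeR adjusted p = 0.997).

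Txnip and Crebrf came next in order of p. Txnip had a log2 fold change of -0.41 ± 0.11 (edgeR adjusted p = 0.0583) and Crebrf of -0.38 ± 0.11 (edgeR adjusted p = 0.0699), and in both genes the 3 TAL1 mice lay below the 3 empty-vector mice. Both passed with DESeq2 (adjusted p = 0.0134 for Txnip and 0.0304 for Crebrf), so the count of 2 became 4. Klhl24 had -0.38 ± 0.18 and Foxo4 -0.27 ± 0.14 on the log2 scale, with adjusted p = 0.291 and 0.345. Foxo3, Ccng2 and Irs2 lay between -0.08 and 0.00, with adjusted p of 0.845 or higher in edgeR.

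**Figure D3:**
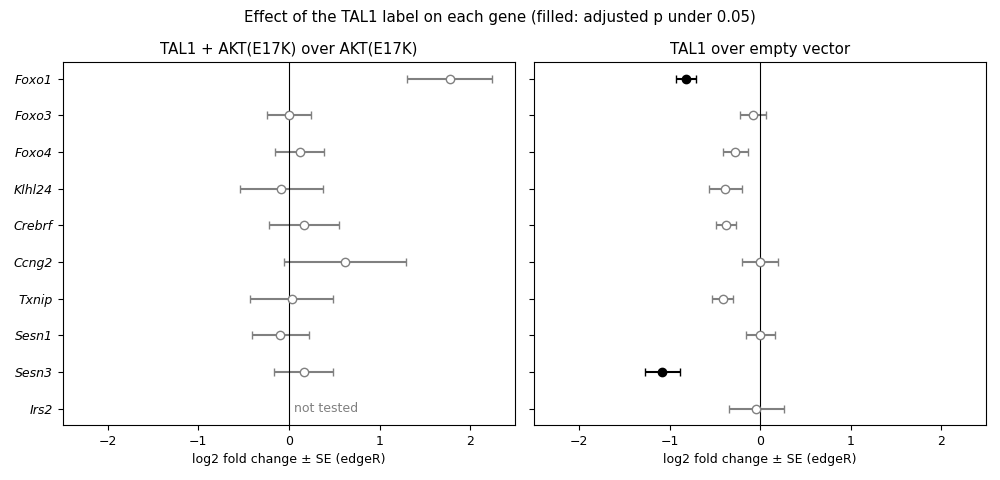
Log2 fold change with its SE (x axis, edgeR) for each gene (y axis) for AKT(E17K) with TAL1 over AKT(E17K) (left) and for TAL1 over empty vector (right), 3 mice a group; filled points have an adjusted p under 0.05. Foxo1 lies at 1.77 on the left and -0.82 on the right, Sesn3 at 0.16 and -1.08, and Irs2 was not tested on the left.

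Lists of genes around these were read against the 5.04% of all genes that passed and the 2.88% that were lower. Of 22 tested FOXO targets outside the set, 4 fell and 0 rose with the TAL1 label, with a median log2 fold change of -0.21. All 4 (S1pr1, Ccr7, Klf2 and Il7r) are also on the list of mature T cell markers, and no target outside that list passed. S1pr1 fell by 3.23, Ccr7 fell by 2.46 and Klf2 fell by 2.02 on the log2 scale (edgeR adjusted p = 0.000625, 0.00263 and 0.000625), genes of thymic egress and homing. In the PI3K/AKT pathway 2 of 25 passed: Inpp4b, a phosphatase of PI3K lipids, fell by 1.86 (adjusted p = 0.00103) and Pik3cd, a PI3K catalytic subunit, fell by 1.17 (adjusted p = 0.000219). Among 19 FOXO regulators, Foxm1 rose by 0.94 (adjusted p = 0.00314) and the 14-3-3 gene Ywhae by 0.52 (adjusted p = 0.00498), while Foxp1 fell by 0.38 (adjusted p = 0.036). Of 15 proliferation genes 7 rose and 1 fell, with Ccne2, Mcm5 and Top2a higher by 0.99, 0.78 and 0.77, and Ccnd2, which fell by 1.75 (edgeR adjusted p of 0.00334 or lower). Of 19 other quiescence genes 2 passed: Zfp36l1 fell by 0.81 and Slfn2 fell by 0.69 (adjusted p = 0.000664 and 0.0139). None of 16 nutrient-sensing genes around the sestrins (edgeR, smallest adjusted p = 0.142), 11 genes around Txnip and MondoA (0.235) or 12 autophagy genes (0.319) passed. Of 13 mature T cell markers 9 fell, the 4 FOXO targets among them, and the summed levels given above were 780 to 1240 CPM in TAL1 mice against 2250 to 2410 CPM in empty-vector mice. Myeloid markers reached 416 CPM in TAL1 mouse M318. The part of these cells in the lower Foxo1 and Sesn3 was not tested.

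On the AKT(E17K) background, 0 of the 9 genes tested passed between mice with and without TAL1, where 0% of 9782 genes passed with edgeR (709 had an unadjusted p under 0.05, and DESeq2 called 76). Irs2 did not pass the filter on low counts. Foxo1 was at 136, 341 and 91.99 CPM in AKT(E17K) with TAL1 mice m116, m117 and m119, against 50.3, 39.0 and 78.6 CPM in AKT(E17K) mice. All 3 mice with TAL1 lay above the 3 without, and mouse m117 stood far above the rest. The log2 fold change was 1.77 ± 0.47 (edgeR adjusted p = 0.478, DESeq2 adjusted p = 0.0173), and 1.05 without m117 (edgeR adjusted p = 0.997). The other 8 lay between -0.10 and 0.62 on the log2 scale, with SEs of 0.24 to 0.67 and edgeR adjusted p of 0.854 or higher. Sesn3 had 0.16 ± 0.33 here, against -1.08 ± 0.20 without AKT(E17K). Among the 8 genes other than Foxo1, the SEs were widest for Ccng2, Klhl24 and Txnip (0.673, 0.455 and 0.455). The smallest edgeR adjusted p of all 9782 genes was 0.218. A change of the size seen for Foxo1 without AKT(E17K) could therefore be missed in any of the 9 genes. None of the lists of FOXO targets (16 tested), PI3K/AKT genes (22) or proliferation genes (15) held a gene that passed.

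How far the 2 effects of TAL1 differed was tested in 1 fit over the 12 mice, as the effect on the AKT(E17K) background minus the effect off it. None of the 10 genes passed for the difference, where 0.164% of 10947 genes did. For Foxo1 the difference was 2.61 ± 0.54 on the log2 scale (unadjusted p = 0.000267, edgeR adjusted p = 0.0943), and for Sesn3 1.25 ± 0.37 (edgeR adjusted p = 0.232). Foxo1 passed with DESeq2 (adjusted p = 0.0006), without AKT(E17K) mouse m124 (edgeR adjusted p = 0.0219) and without AKT(E17K) with TAL1 mouse m119 (0.0142). It also passed without the filter on low counts (0.00392). It did not pass in the other fits without 1 mouse (0.0623 to 0.266) or with scaling by library size only (0.12). Without AKT(E17K) with TAL1 mouse m117 the difference was 1.87. Among 21 further FOXO targets 1 passed, Klf2, with a difference of 3.59 ± 0.43 (edgeR adjusted p = 0.00575).

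In ProT cells after tamoxifen the changes that passed were in Crebrf, Klhl24 and Ccng2, and none was above 1.56-fold in either direction. Against 0 h, 0 of 10 passed at 6 h (0% of 13610 genes with edgeR, where 734 had an unadjusted p under 0.05 and DESeq2 called 1), 1 at 12 h (12.0%), 0 at 18 h (8.82%) and 1 at 24 h (18.7%). Over all 5 times together 3 passed, Klhl24, Crebrf and Ccng2 (edgeR adjusted p = 0.000621, 0.000113 and 0.0151), against 18.0% of all genes. Between neighbouring times 3 passed at 12 h against 6 h (10.9%), 1 at 18 h against 12 h (0.0514%, 7 genes) and 2 at 24 h against 18 h (0.162%, 22 genes). These comparisons share libraries.

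Crebrf and Klhl24 went up and down in step. Crebrf was at 135, 127 and 129 CPM before tamoxifen, 130.0, 150.1 and 145 after 6 h, 94.1, 83.1 and 105 after 12 h, 136, 151 and 132 after 18 h, and 99.6, 97.2 and 85.5 after 24 h. The libraries at 12 and 24 h all lay below those at 0, 6 and 18 h. Against 0 h on the log2 scale, Crebrf fell by 0.46 ± 0.11 (12 h) and fell by 0.44 ± 0.11 (24 h) (edgeR adjusted p = 0.00805 and 0.00772). At 12 h against 6 h it fell by 0.60 ± 0.11 (adjusted p = 0.000805), at 18 h against 12 h it rose by 0.57 ± 0.11 (0.0362) and at 24 h against 18 h it fell by 0.56 ± 0.11 (0.0198).

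Klhl24 was at 97.4, 89.6 and 96.7 CPM before tamoxifen, 116.8, 114 and 99.6 after 6 h, 78.4, 79.4 and 90.6 after 12 h, 120.7, 118.5 and 110.0 after 18 h, and 79.4, 80.6 and 71.3 after 24 h. On the log2 scale it fell by 0.42 ± 0.11 for 12 h against 6 h (edgeR adjusted p = 0.0121) and fell by 0.58 ± 0.11 for 24 h against 18 h (0.0126), and had 0.50 ± 0.11 at 18 h against 12 h (0.116). Across the 15 ProT libraries, which share the time design, the Pearson correlation of log2 CPM of Klhl24 and Crebrf was 0.89, and Crebrf was the gene most like Klhl24 among 8952, with Pde4b and Rel next (0.873 each). The genes most like Crebrf were Slc4a7, Satb1 and Rapgef6 (0.951, 0.925 and 0.924), ahead of Klhl24.

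The calls at neighbouring times depended on single libraries more than the sizes of the changes did. With 1 library left out, Klhl24 ran from -0.63 to -0.53 and Crebrf from -0.60 to -0.49 on the log2 scale at 24 h against 18 h, and Crebrf ran from 0.49 to 0.65 at 18 h against 12 h. The calls at 24 h against 18 h were lost without either of 18 h libraries 1 and 2 or any of the 24 h libraries (adjusted p up to 0.169 for Klhl24 and 0.263 for Crebrf), and the Crebrf call at 18 h against 12 h was lost in 9 of the 15 fits that left out 1 library (up to 0.427). The Crebrf call at 12 h against 0 h was lost without 12 h library 2 (0.0579), and the Klhl24 call at 12 h against 6 h without 6 h library 2 (-0.41, adjusted p = 0.0525) or 12 h library 2 (-0.39, 0.0591). The 6 h library 1 and 12 h library 1 stood apart from the other libraries of their times. Without 6 h library 1, Foxo3 also passed at 12 h against 6 h (0.37, adjusted p = 0.044), and without 12 h library 1, Foxo4 did (-0.64, adjusted p = 0.0283). With scaling by library size only, neither Crebrf call against 0 h was kept (adjusted p = 0.149 at 12 h and 0.157 at 24 h); this scaling moved the median of all genes by 0.18 at 12 h and 0.17 at 24 h.

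**Figure D4:**
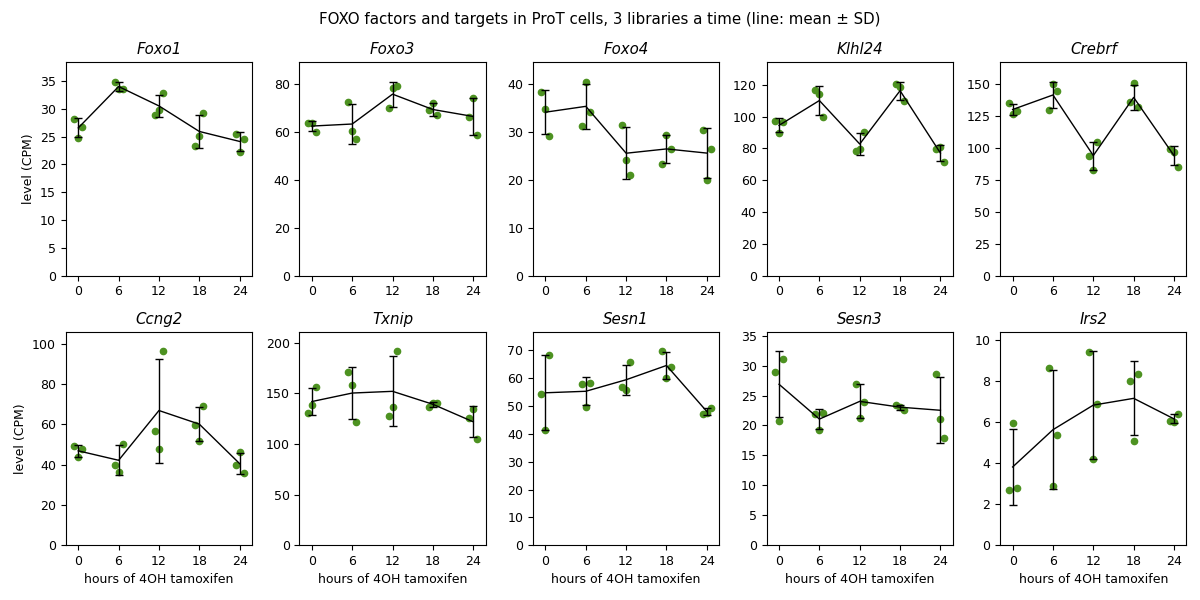
Level of each gene in CPM (y axis, linear, from 0) by hours of 4OH tamoxifen (x axis) in ProT cells; points are libraries, the line joins the means and the whiskers are SDs (n = 3). Klhl24 and Crebrf are high at 6 and 18 h and low at 12 and 24 h, and Ccng2 has 1 library at 96.2 CPM at 12 h.

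Ccng2 was at 49.0, 43.6 and 47.9 CPM before tamoxifen, 40.0, 36.2 and 50.4 after 6 h, 56.8, 47.6 and 96.2 after 12 h, 59.5, 51.8 and 69.0 after 18 h, and 39.6, 46.1 and 35.8 after 24 h. The 12 h libraries spread widest, and overlapped those at 6 h. It rose by 0.64 ± 0.18 on the log2 scale at 12 h against 6 h (edgeR adjusted p = 0.0233), and this call rests on 12 h library 3, without which the value was 0.31 (adjusted p = 0.243), and on 6 h library 2 (0.125 without it).

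The FOXO factors did not pass at any time against 0 h. Foxo1 was low in this line, with 26.6 ± 1.71 CPM before tamoxifen, 34.0 ± 0.759 after 6 h, 30.6 ± 2.02 after 12 h, 25.9 ± 3.04 after 18 h and 24.2 ± 1.67 after 24 h (edgeR adjusted p = 0.0867 over all times). At 0 h it was 7.69-fold lower than in empty-vector thymus, in a separate table and with no test. Foxo3 lay between 62.6 and 75.9 CPM and Foxo4 between 25.6 and 35.4 CPM in the 5 group means, with adjusted p = 0.367 and 0.13 over all times.

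Txnip had means of 121.9 to 152 CPM, Sesn1 of 48.0 to 64.5, Sesn3 of 21.1 to 26.9 and Irs2 of 3.82 to 7.17, and none passed in any comparison of ProT times (edgeR). Per kilobase Txnip led the 10 genes at every time, with 45.4 CPM per kb at 0 h, and Irs2 was the lowest. Genes whose log2 CPM was most like that of a factor or of Txnip over the 15 libraries were Cd27, Tlr12 and Ubl3 for Foxo1 (r = 0.833, 0.808 and 0.772), Notch2, Dpp3 and Gm7488 for Foxo3 (0.905, 0.884 and 0.874), Safb, Crot and Gm12216 for Foxo4 (0.914, 0.903 and 0.895), and Rnf24, Pank2 and Ccdc6 for Txnip (0.819, 0.806 and 0.784).

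Genes of the pathway lists passed in both directions. At 24 h against 0 h, where 18.7% of all genes passed, 4 of 22 tested FOXO targets outside the set rose and 1 fell, with Ccr7, Trib1 and Cat higher by 0.96, 0.68 and 0.54 on the log2 scale, while S1pr1 fell by 1.18 (edgeR adjusted p of 0.0217 or lower). Of 24 PI3K/AKT genes 3 rose and 3 fell. Pik3r2 rose by 0.95, Igf1r by 0.44 and Akt1 by 0.39, and among those lower Gsk3b fell by 0.40 and Pik3ca fell by 0.38 (adjusted p of 0.047 or lower). The share that passed in each of these lists was near that of all genes. Of 15 proliferation genes 10 rose and 0 fell, among them Top2a by 0.90, Ccnb1 by 0.77 and Cdk1 by 0.76 (adjusted p of 0.00102 or lower). At 12 h, where 12.0% of all genes passed, 3 of 13 autophagy genes that FOXO can drive were higher, Bnip3 by 2.0, Wipi1 by 1.08 and Bnip3l by 0.51 (adjusted p = 1.67e-06, 0.0388 and 0.00805). At 18 h 2 of 13 were higher, Bnip3 by 1.33 and Sqstm1 by 0.45 (adjusted p = 0.000668 and 0.0194), and at 24 h 0 of 13 passed (smallest adjusted p = 0.0868). Of 11 genes around Txnip and MondoA, Slc2a1, the glucose transporter, rose by 1.62 and Hk2 by 0.54 at 12 h (adjusted p = 1.27e-05 and 0.00801).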

How the data were processed

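The members and the gene lists were chosen with earlier results of these data known. The authors deposited 3 tables of raw counts per gene, and the submitters' processing notes name FastQC, HISAT2, SAMtools and HTSeq with mm10 and GRCm38; versions, annotation and strand setting are not given in the sources used here. The table of AKT(E17K) mice gives symbols only. Each table was fitted separately with edgeR 4.0.16 in R 4.3.3 (TMM, filterByExpr by group, quasi-likelihood F test, Benjamini-Hochberg, 0.05), ProT cells in 1 fit over 5 times, and the contrast over 12 mice on 22729 shared symbols. The F statistic gave the SE of each log2 fold change (its size over the root of F). Levels are CPM of 22729 shared symbols in 27 libraries, with library sizes and TMM factors taken over the 11644 that passed the filter. Loci and exon lengths are from GENCODE on GRCm38. The script was tested on simulated data. Alternatives were DESeq2 1.42.0, RLE, library size only, no filter, 1 library left out, a replicate block and fits over 2 times. The text names all 10 members and, per list and comparison, at most 3 called genes per direction by size, or 2 by p where none was called. Some genes that this rule or the marker lists would name are not reported here.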

Additional observations from a re-analysis of the deposited data

Results flagged for a closer look

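The log2 fold change of Foxo1 with the TAL1 label was positive on the AKT(E17K) background and negative off it, and in each table no mouse of one group overlapped the other. The positive value, 1.77, did not pass its own test (edgeR adjusted p = 0.478, and 0.997 without AKT(E17K) with TAL1 mouse m117). The difference, on minus off the AKT(E17K) background, was 2.61 on the log2 scale and did not pass either, with an edgeR adjusted p of 0.0943 (0.0142 to 0.266 over fits without 1 mouse). It was 1.87 without m117.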

How the results depend on the processing

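Of 1790 values of the 10 genes under alternatives, 1738 kept their side of the threshold, 30 lost a call, 22 gained one and 0 called values changed direction; 87 values changed sign, all called in neither setting, 12 of them with library size only. For TAL1 over empty vector the count of genes that passed was 2, and 4 with library size only, without the filter and with DESeq2, each time by adding Txnip and Crebrf. For AKT(E17K) with TAL1 over AKT(E17K) it was 0, and 1 (Foxo1) with DESeq2. For the difference of these effects it was 0, and 1 (Foxo1) without the filter and with DESeq2, and 0 to 1 without 1 mouse. In ProT cells it was 2 at 12 h with library size only (Foxo3 and Ccng2) and 2 without the filter (Crebrf and Ccng2), against 1. At 18 h it was 1 with library size only (Klhl24) and 2 in the fit over 0 and 18 h (Klhl24 and Ccng2), against 0, and at 24 h 0 with library size only, against 1. With 1 library left out it ran from 1 to 4 at 12 h against 6 h, 0 to 2 at 18 h against 12 h and 0 to 2 at 24 h against 18 h; with library size only the last 2 were 0. The cause of these moves was not tested. The counts of 4 genes at least 4-fold lower across tables, and these checks of them, were added after seeing the data: they ran from 3 to 6 for AKT(E17K) against empty vector and 4 to 5 for AKT(E17K) with TAL1 against TAL1 with 1 mouse left out, and were 4 and 3 with each table's own totals, which moved 57 of 90 group levels by over 1 SD. Replicate numbers in ProT cells did not pair the libraries: deviations of same-numbered libraries correlated at -0.143 to 0.213 in 30 pairs, and 4 of 15 libraries correlated best with their own number. With the replicate block the counts were 1 at 12 h, 0 at 18 h and 1 at 24 h, with no call of these genes changed. No paired analysis was possible for the mice because their labels share no numbers. The 0 calls between AKT(E17K) groups come with the lowest depth and the widest spread between replicates (biological coefficient of variation 35.0%, against 22.0% in TAL1 and empty-vector mice and 11.6% in ProT cells).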

Other observations

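The late ProT steps held few other genes, all seen after their values were known. At 18 h against 12 h, 7 genes passed in edgeR and all rose: beside Crebrf these were Egr1, Zfp36, Ier2, Dusp2, Junb and Cirbp. Egr1, an immediate early gene, had means of 8.0 CPM before tamoxifen, 8.48 after 6 h, 2.54 after 12 h, 127 after 18 h and 28.0 after 24 h. At 24 h against 18 h, 20 of 22 genes fell, and Crebrf, Egr1, Junb and Zfp36 were the 4 that passed in both steps. Of 22 tested FOXO targets outside the set, 2 fell and 0 rose at this step, where 0.147% of all genes fell. Cdkn1b fell by 0.61 and Bcl2l11, a pro-apoptotic BH3-only gene, by 0.65 on the log2 scale (edgeR adjusted p = 0.00783 and 0.0117). The other genes that fell, Crebrf and Klhl24 aside, are not on the list of FOXO targets. Ddit4, an mTORC1 inhibitor, fell by 0.64 (0.0112). Bnip3 fell by 1.27 (0.00593) after means of 60.3 CPM at 12 h and 38.1 CPM at 18 h, against 15.6 CPM at 24 h. With 1 library of 18 or 24 h left out, the count of genes at this step ran from 1 to 27.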
